A study of Homo sapiens with 10 samples.

Results

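T8 is a line of MDA-MB-231 cells recovered from a xenograft that grew back after treatment with SM-164, and its labels call it sensitive to that drug. The comparison set the 2 arrays titled T8 against the 2 arrays titled parental, which makes 4 of the 10 arrays of the series. MDA-MB-231 is an established human breast cancer line without hormone receptors or HER2 amplification, and the parental cells were grown in culture under standard conditions and are also labelled sensitive. SCID mice, which lack working T and B lymphocytes, carried MDA-MB-231 tumours and received SM-164 into a vein at 5 mg/kg on 5 days of each of 2 weeks. The tumours that grew back were harvested, their tumour cells were isolated, and total RNA (5 ug per array) was hybridised to Affymetrix expression arrays. T2, T3 and T6 came from other regrown tumours with 2 arrays each. T2 and T3 are labelled resistant and T6 sensitive, so T8 and T6 share a label. No xenograft without drug was among the samples, so growth in the mouse and the drug cannot be told apart in any difference between T8 and parental cells. T8 is 1 tumour, and the labels do not say whether its arrays came from separate cultures, so the p-values measure only the spread between arrays, which may be technical.

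SM-164 is a Smac mimetic. Smac, encoded by DIABLO, is a mitochondrial protein that binds the inhibitor of apoptosis (IAP) proteins XIAP, cIAP1 and cIAP2. XIAP restrains caspases, and the cIAP proteins are ubiquitin ligases that keep the TNF receptor complex in a survival state, so their loss lets TNF or TRAIL drive caspase-8 and cell death. MDA-MB-231 cells are mesenchymal-like, carry strong signalling through RAS and NF-kB, and are widely used to study invasion and metastasis.

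Values are log2 RMA intensities from the authors' table, and every difference is on that log2 scale. A gene is represented by its brightest probe set, and 14929 of 19775 genes reached log2 5 on at least 2 arrays and were tested. The ± values are standard errors (SE) of limma's moderated fit with 2 arrays against 2, and calls were made at an adjusted p under 0.05 (Benjamini-Hochberg, over all genes tested). Array medians ran from 5.43 to 5.57, and the arrays of one line correlated at 0.996 to 0.998. All 11 markers of MDA-MB-231 cells were above log2 5 in T8, with a mean of 12.37 and 12.40 on its arrays against 12.37 and 12.48 in parental cells. Of 9 markers of luminal or hormone receptor positive breast cells, PGR, FOXA1 and CDH1 were below log2 5 in T8 and 6 were above it, from ESR1 (6.56) to KRT19 (12.24), at levels near the parental ones (6.71 and 12.08). Of the 7 tested, SPDEF was called higher in T8 and ERBB2 lower.

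Of the 14929 genes, 6532 (43.8%) were called between T8 and parental cells. T8 was higher in 4285 (28.7%) and lower in 2247 (15.1%), and a difference of at least log2 1 was seen in 353 higher (2.36%) and 141 lower genes (0.944%). The excess of higher genes depended on how arrays were scaled. Higher genes made up 65.6% of calls in the deposited values, 48.3% after another quantile normalisation (3117 higher, 3333 lower) and 79.2% after centring each array on its median (4916 higher, 1292 lower), which moved the median of all genes from 0.034 to 0.132. Lower calls fell to 1346 without T8 replicate 1 and to 1449 without parental replicate 2. The distance of T8 from the parental cells was like that of the other tumours in correlation (0.980 against 0.977 to 0.982). Its median absolute difference was 0.235, beside 0.175 in T2, 0.197 in T3 and 0.198 in T6, and 494 genes changed by at least log2 1, beside 521, 553 and 422. These comparisons share the parental arrays.

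**Figure D1:**
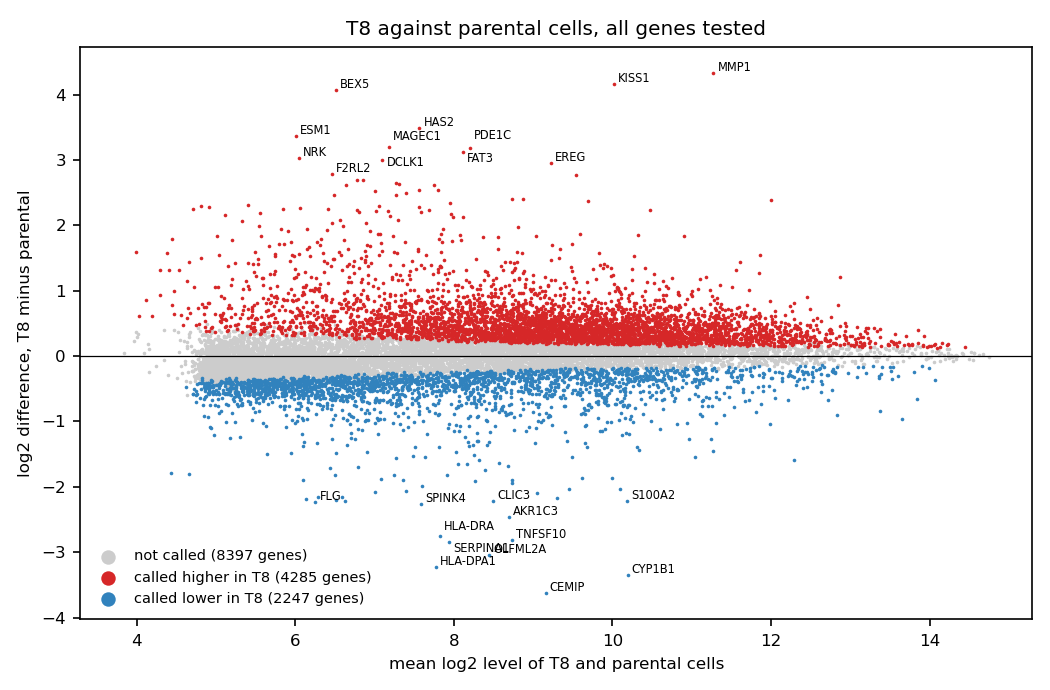
T8 minus parental difference and mean level of each tested gene in log2 RMA values, 2 arrays each, with the largest called differences named. MMP1, KISS1 and BEX5 have the largest differences upward (4.33, 4.16 and 4.07), and CEMIP and CYP1B1 the largest downward (-3.62 and -3.35).

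The largest rise in T8 was in MMP1, the interstitial collagenase. It measured 9.22 and 9.0 in parental cells and 13.42 and 13.45 in T8, a rise of 4.33 ± 0.07 (20.1-fold; adjusted p = 9.75e-15). The arrays of T8 were far above both parental arrays and did not overlap them. T8 stood below T2 and T3 for MMP1 by 0.43 and 0.53, both called, and its difference from T6 (0.21) was not called. KISS1, which encodes the secreted peptide kisspeptin and is known as a metastasis suppressor gene, went from 7.97 and 7.91 to 12.08 and 12.12, a rise of 4.16 ± 0.07 (adjusted p = 9.75e-15). Both T8 arrays were also above all other tumour arrays, which lay at 10.59 and 10.70 in T2, 11.08 and 11.21 in T3, and 11.28 and 11.38 in T6. T8 exceeded these tumours by 1.46, 0.96 and 0.77, all called.

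HAS2, a synthase of the matrix polysaccharide hyaluronan, measured 6.0 and 5.64 in parental cells and 9.33 and 9.29 in T8 (3.49 ± 0.12; adjusted p = 3.93e-11). Its further probe set rose by 3.67. The other tumours lay between, at 7.78 to 8.43, and T8 was above T2, T3 and T6 by 1.41, 1.21 and 0.92. FAT3, an atypical cadherin, measured 6.51 and 6.59 in parental cells and 9.71 and 9.63 in T8 (3.12 ± 0.13; adjusted p = 1.9e-10). T2 stayed at the parental level (6.27 and 6.61), T3 (7.05 and 7.37) and T6 (7.84 and 7.78) were a little higher, and T8 exceeded the 3 tumours by 3.23, 2.46 and 1.86. DCLK1, a doublecortin-like kinase of microtubules, rose from 5.66 and 5.53 to 8.65 and 8.54 (3.0 ± 0.12), above T2, T3 and T6 by 2.29, 1.65 and 1.02.

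Several other large rises were approached, matched or exceeded in another tumour. BEX5, of the brain-expressed X-linked family, rose from 4.37 and 4.59 to 8.51 and 8.59 (4.07 ± 0.12). T3 came near it (7.88 and 7.92) while T2 and T6 were at 5.20 to 6.03, and T8 was still above T3 by 0.64 (adjusted p = 0.00228). PDE1C, a calmodulin-dependent phosphodiesterase, rose by 3.19 ± 0.10, and T8 was above T3 by 0.52 but above T2 by 3.88 and T6 by 1.91. Its further probe sets gave 0.13 to 3.48. ESM1, the secreted proteoglycan endocan, rose by 3.37 ± 0.15 in T8 but was 2.80 higher in T3 than in T8. MAGEC1, a cancer-testis antigen, rose by 3.20 ± 0.12 and stood 0.51 below T3. NRK, a kinase of the germinal centre kinase family, rose by 3.03 ± 0.16 and stood 1.99 below T3, with a further probe set at 0.51. EREG, the EGFR ligand epiregulin, rose by 2.95 ± 0.14, 0.97 below T2 and 0.88 below T6, with a further probe set at 0.09. F2RL2, a protease-activated receptor, rose by 2.78 ± 0.12 with no called difference from T3. The parental values of BEX5, ESM1 and NRK lay below log2 5, where an array compresses differences, so these sizes are uncertain.

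The largest fall in T8 was in CEMIP, a protein that binds and degrades hyaluronan. It fell from 10.97 on both parental arrays to 7.61 and 7.08 (-3.62 ± 0.15; adjusted p = 2.67e-10), and its further probe set gave -0.91. CYP1B1, a monooxygenase of oestrogens and xenobiotics, fell from 11.88 and 11.85 to 8.57 and 8.46 (-3.35 ± 0.08; adjusted p = 4.75e-13). TNFSF10, which encodes the death ligand TRAIL, fell from 10.21 and 10.08 to 7.43 and 7.22 (-2.82 ± 0.10; adjusted p = 8.75e-11). All 3 genes were far lower on both T8 arrays than on either parental array. CEMIP did not differ by call between T8 and any other tumour. CYP1B1 was lower in T8 than in T2 (-1.45) and T6 (-0.45), with no called difference from T3 (-0.02).

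TNFSF10 was lower in T8 than in T2, T3 and T6 by 0.40, 0.51 and 0.54. These gaps are small beside the fall itself, and TNFSF10 missed at least 1 of these calls without T6 replicate 1, without T8 replicate 2, with median-centred arrays and with the mean over probe sets. Its 3 probe sets all fell (-2.55 and -2.65 in the further ones). HLA-DPA1 (-3.22 ± 0.15) and HLA-DRA (-2.75 ± 0.15), chains of class II antigen-presenting molecules, fell together. OLFML2A, an olfactomedin-like matrix protein, fell (-3.04 ± 0.11), as did the antitrypsin gene SERPINA1 (-2.84 ± 0.15) and the aldo-keto reductase AKR1C3 (-2.46 ± 0.10). Also among the 12 largest falls were the protease inhibitor gene SPINK4 (-2.26), the skin barrier gene FLG (-2.23), the calcium-binding S100A2 (-2.22) and the chloride channel protein gene CLIC3 (-2.21), with SEs of 0.07 to 0.18.

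To find changes not seen in T2, T3 and T6, T8 was tested directly against each. T8 differed from T2 in 4743 genes (31.8%; 3301 higher, 22.1%, and 1442 lower, 9.66%), from T3 in 2750 (18.4%; 2054 higher, 13.8%, and 696 lower, 4.66%) and from T6 in 2253 (15.1%; 1557 higher, 10.4%, and 696 lower, 4.66%). These comparisons share the T8 arrays. A gene was counted as particular to T8 when it was called against parental cells and called in the same direction against each of the other tumours. By that rule 308 genes (2.06%) were particular to T8 on the high side and 32 (0.214%) on the low side. The same rule gave 200 and 405 genes for T2, 349 and 495 for T3, and 43 and 12 for T6. In T8, 52 of the higher and 3 of the lower genes differed from the nearest tumour by at least log2 0.5, and 5 and 0 by at least log2 1. For 93 of the 308 and 9 of the 32, none of the other tumours was called against parental cells. In 197 of the 308 and 26 of the 32, the mean of T2, T3 and T6 lay on the same side of parental cells as T8. The rule thus also takes in changes that were shared in direction and larger in T8.

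The counts of T8-particular genes rested on the arrays and the scaling more than the T8 against parental calls did. They were 107 higher and 13 lower without T8 replicate 1, 98 and 8 without T8 replicate 2, 134 and 10 without T6 replicate 1, 139 and 18 without T6 replicate 2, and 170 and 17 without T3 replicate 1. Another quantile normalisation gave 188 higher and 124 lower, and median-centred arrays 179 and 8. The 10 higher genes named here as farthest from the other tumours stayed in the class in each of these settings. Of 308 higher genes 4 would not have passed the log2 5 filter without the T8 arrays, CDH5 and TIE1 among them, so that these had to differ. Particular genes named further on had smaller gaps. BOK, CCNG1, ETV4, IFITM1, TAP2, TGFBR2, TNFRSF10D, WNT5B, BARD1 and EML1 left the class under both other scalings. FOSL1 and TYMS left it after another quantile normalisation, and DUSP4, NDUFV2, PMAIP1, DSG2, RHBG, AIM2, CREG1, S100A6 and TAGLN2 with median-centred arrays.

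**Figure D2:**
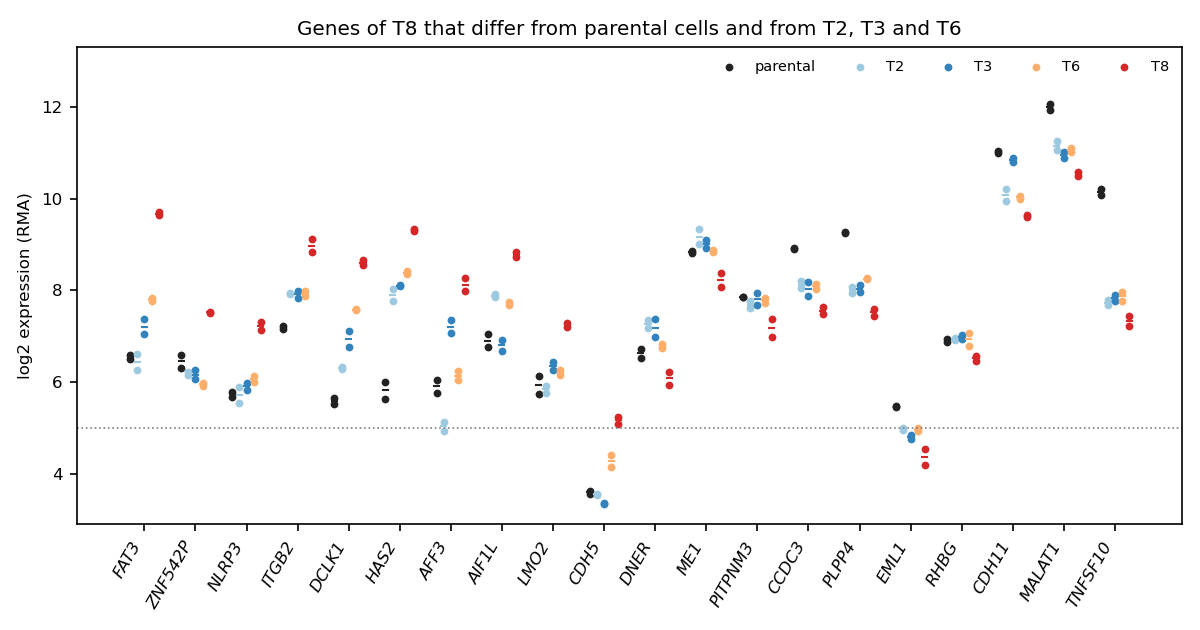
Log2 RMA value on each of the 10 arrays for the T8-particular genes farthest from T2, T3 and T6, higher genes and lower genes, with a dotted line at the log2 5 filter. In each higher gene both T8 points lie above every other point, and in each lower gene below every other point.

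FAT3, ZNF542P, NLRP3, ITGB2 and DCLK1 were the 5 genes more than log2 1 above every other tumour. ZNF542P, a zinc finger pseudogene, measured 7.53 and 7.52 in T8 against 6.59 and 6.31 in parental cells (1.07 ± 0.12), and the other tumours were at 5.91 to 6.26. T8 was 1.33, 1.36 and 1.57 above T2, T3 and T6, and a further probe set rose by 1.12. NLRP3, the sensor of the inflammasome that activates caspase-1, measured 7.31 and 7.13 in T8 against 5.78 and 5.68 in parental cells (1.49 ± 0.14; adjusted p = 1.08e-06). T2, T3 and T6 arrays ran from 5.54 to 6.14, near the parental level, with T8 above them by 1.5, 1.31 and 1.15. A further NLRP3 probe set gave 0.77. ITGB2, the common beta chain of leukocyte integrins, rose from 7.23 and 7.16 to 9.12 and 8.83 (1.78 ± 0.11), while T2, T3 and T6 rose by 0.73, 0.72 and 0.73. Its further probe sets gave -0.10 and 1.58.

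AFF3, a nuclear protein of transcription elongation complexes, rose by 2.22 ± 0.15, but its further probe sets gave only 0.07 to 0.20 and it left the class with the mean over probe sets. AIF1L, an actin-binding protein, rose by 1.87 ± 0.12, and was 0.90, 1.97 and 1.06 above T2, T3 and T6. LMO2, a LIM-domain bridge of transcription factor complexes in blood and vessel cells, rose from 5.73 and 6.13 to 7.28 and 7.21 (1.31 ± 0.14), above the other tumours by 1.40, 0.89 and 1.04. AIF1L and LMO2 had no tested value once less specific probe sets were left out. CDH5, the cadherin of endothelial junctions, measured 5.23 and 5.10 in T8 and 3.34 to 4.40 on all other arrays, so that it was tested only because T8 reached log2 5.

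Genes particular to T8 on the low side were fewer and closer to the other tumours. DNER, a transmembrane Notch ligand known from neurons, measured 6.22 and 5.94 in T8 and 6.73 and 6.52 in parental cells (-0.55 ± 0.14; adjusted p = 0.00661). T2 and T3 had risen above parental cells by 0.65 and 0.56, and T8 was below T2, T3 and T6 by 1.20, 1.10 and 0.71. ME1, the cytosolic malic enzyme that makes NADPH, measured 8.38 and 8.08 against 8.85 and 8.82 (-0.60 ± 0.12), and T8 was the only tumour below the parental cells by call. CDH11, a cadherin of mesenchymal cells, fell from 11.03 and 10.99 to 9.64 and 9.60 (-1.40 ± 0.08), beside 9.95 to 10.20 in T2 and T6 and 10.81 and 10.89 in T3.

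MALAT1, a long noncoding RNA of nuclear speckles, fell from 12.07 and 11.93 to 10.58 and 10.50 (-1.46 ± 0.08), with the other tumours at 10.88 to 11.26. Its 11 further probe sets fell by 0.52 to 1.75, but the order of T8 and the other tumours turned (0.19 above their mean) once less specific probe sets were left out. The lipid transfer protein gene PITPNM3 (-0.67), the secreted CCDC3 (-1.35), the lipid phosphatase PLPP4 (-1.74), the microtubule-binding EML1 (-1.09) and the ammonium transporter RHBG (-0.39) completed the 10 lower genes by the naming rule. T8 was below each other tumour by 0.41 to 0.73 in these 5. EML1, at 4.37 in T8 and below log2 5 in all tumours, and RHBG left the class when single arrays were omitted. CCDC3 left it without T3 replicate 1, T6 replicate 1 or T8 replicate 1, PITPNM3 without T6 replicate 1 or T8 replicate 2, and DNER without T8 replicate 2. ME1 and CDH11 left it once less specific probe sets were left out.

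The reverse case was a change made by T2, T3 and T6 together that T8 lacked in whole or in part. Here T2, T3 and T6 each differed from parental cells by call in one direction, and T8 was called on the other side of each. This was seen for 12 genes (0.0804%) that were higher elsewhere and 71 (0.476%) that were lower elsewhere, and T8 was not called against parental cells in 5 and 46 of them. Median-centred arrays gave 4 and 30, and another quantile normalisation 40 of the first kind. Omitting T8 replicate 1 gave 4 and 28, T8 replicate 2 gave 3 and 30, T6 replicate 1 gave 7 and 30, T6 replicate 2 gave 7 and 34, and T3 replicate 1 gave 37 of the second kind.

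**Figure D3:**
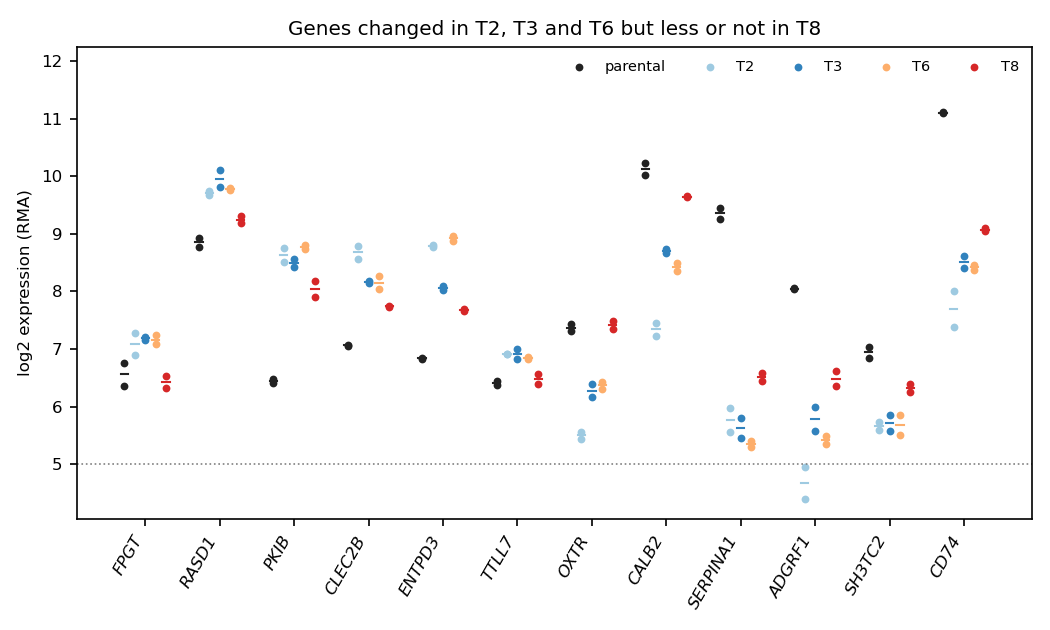
Log2 RMA value on each of the 10 arrays for genes that T2, T3 and T6 changed and T8 lacked in whole or in part, with a dotted line at the log2 5 filter. For OXTR the T8 points (7.48 and 7.35) lie level with the parental points (7.44 and 7.31), and the other tumours lie at 5.44 to 6.42.

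OXTR, the oxytocin receptor, measured 7.48 and 7.35 in T8 and 7.44 and 7.31 in parental cells (0.04 ± 0.12, with a 95% interval of 0.25 to either side). T2 had fallen by 1.87, T3 by 1.10 and T6 by 1.01, and T8 overlapped the parental arrays alone. CALB2, the calcium-binding protein calretinin, was 10.03 and 10.24 in parental cells and 9.64 and 9.65 in T8 (-0.49 ± 0.10), beside falls of 2.79, 1.43 and 1.70 in T2, T3 and T6. SERPINA1 (-2.84 in T8) and the adhesion receptor ADGRF1 (-1.56) fell strongly in T8 and yet stood 0.75 to 1.17 and 0.71 to 1.82 above the other tumours. CD74, the invariant chain of class II molecules, fell from 11.11 on both arrays to 9.10 and 9.05 (-2.04 ± 0.14), beside falls of 3.42, 2.60 and 2.69. Its further probe sets gave -1.0 to -0.24. SH3TC2, a protein of endosomal recycling, differed from parental cells by -0.62 ± 0.15 and stood 0.61 to 0.66 above the other tumours. CD74, ADGRF1 and SH3TC2 left this class without T3 replicate 1 and without T8 replicate 1. CD74 also left it without T6 replicate 1, without T8 replicate 2, without a trend and with the mean over probe sets. SERPINA1 and CALB2 had no tested value once less specific probe sets were left out.

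Of genes higher elsewhere, FPGT, an enzyme of fucose salvage, measured 6.53 and 6.33 in T8 and 6.76 and 6.36 in parental cells (-0.13 ± 0.15), while T2, T3 and T6 were higher by 0.53, 0.63 and 0.60. ENTPD3, an enzyme that breaks down extracellular nucleotides, rose by 0.85 ± 0.08 in T8 and by 1.96, 1.22 and 2.09 elsewhere. PKIB, an inhibitor of protein kinase A, rose by 1.60 ± 0.11, with T8 0.45 to 0.73 below the others. The small GTPase gene RASD1 (0.39) and the lectin gene CLEC2B (0.68) also rose less in T8, and the tubulin ligase TTLL7 (0.07) was not called. Further probe sets of CLEC2B (0.06) and TTLL7 (-0.01) were near 0. Of these 6 genes named as higher elsewhere, 1 stayed in the class without T8 replicate 2.

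Among the targets of SM-164 and their antagonists 5 of 10 tested genes rose, 1 fell and 4 were not called, with a median of 0.22. Over all genes 28.7% rose and 15.1% fell in the deposited scaling, with a median of 0.034. After another quantile normalisation 3117 of 14888 genes rose and 3333 fell, with a median of -0.029. The counts of this list and of those that follow stand beside those of their own scaling. In this list 3 rose and 1 fell after another quantile normalisation, with a median of 0.07. XIAP measured 10.04 in T8 and 9.66 in parental cells (0.37 ± 0.12; adjusted p = 0.0254), BIRC2, which encodes cIAP1, rose by 0.31 ± 0.06, DIABLO by 0.34 ± 0.06 and the mitochondrial protease HTRA2 by 0.66 ± 0.07. XAF1, an interferon-induced antagonist of XIAP, fell by 0.96 ± 0.16. None of these genes was particular to T8. BIRC2 stood 0.22 below T2 and XIAP 0.80 above T2, with no called difference of either from T3 or T6. BIRC3 and RIPK1 were not analysed here.

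In the TNF receptor complex, TNFRSF1A and CASP8 showed no called difference. TNFRSF1A, the main TNF receptor, differed by -0.10 ± 0.06 (adjusted p = 0.228, interval of 0.13 to either side) and CASP8, the initiator caspase, by -0.06 ± 0.12 (adjusted p = 0.715, interval of 0.26). TNF lay below log2 5 in T8 and parental cells. CFLAR, the inhibitor of caspase-8, fell by 0.22 ± 0.07 (adjusted p = 0.0222). Of 19 genes in the complex list 6 rose and 3 fell, near the shares over all genes (28.7% and 15.1%). The median of 0.05 turned to -0.06 after another quantile normalisation. TNFAIP3, a deubiquitinase that dampens NF-kB, rose by 1.02 ± 0.09 and the necroptosis effector MLKL by 0.89 ± 0.09, while the second TNF receptor TNFRSF1B fell by 1.19 ± 0.14 and the adaptor TAB3 by 0.56 ± 0.13.

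Among decoy receptors for TRAIL, TNFRSF10D and TNFRSF11B were higher in T8 than in parental cells. TNFRSF10D, a membrane receptor for TRAIL that lacks a working death domain, measured 7.76 and 7.73 in parental cells and 9.41 and 9.34 in T8 (1.63 ± 0.10), above T2, T3 and T6 by 0.48, 0.32 and 0.51, though these calls did not all hold under either other scaling. TNFRSF11B, the soluble decoy osteoprotegerin, rose from 5.31 and 5.38 to 6.92 and 7.11 (1.67 ± 0.15), above them by 2.03, 1.09 and 0.54. The T8 arrays of both genes lay above every other array. Neither gene stayed particular to T8 without T6 replicate 1, without T8 replicate 1 or without T8 replicate 2. TNFRSF10B, a death receptor for TRAIL, rose by 0.45 ± 0.08. The whole list had 4 of 11 genes higher and 2 lower, with a median of 0.15 that became -0.01 after another quantile normalisation.

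In the BCL2 family, which sets the mitochondrial threshold of apoptosis, 6 of 15 genes (28.7% over all genes) rose and 3 (15.1%) fell. The survival genes BCL2A1 and BCL2 rose by 2.30 ± 0.14 and 0.95 ± 0.12, although BCL2A1 started from 3.67 on both parental arrays, below log2 5. Further probe sets of BCL2 gave -0.24 to 0.21. The pro-death BAX (-0.73 ± 0.15), BMF (-0.38 ± 0.13) and PMAIP1 (-0.30 ± 0.07) fell, and PMAIP1, which encodes NOXA, was particular to T8 on the low side at 0.23 to 0.77 below the other tumours. Its further probe set gave 0.20 against parental cells, and it was not particular with median-centred arrays. BOK, a BAX-like effector, was particular on the high side (0.38 ± 0.07) in the deposited scaling alone, and turned to -0.01 once less specific probe sets were left out. The list's median of 0.15 became -0.01 after another quantile normalisation. Of 8 caspase and apoptosome genes 5 rose and 1 fell, led by the inflammatory caspase CASP4 (1.58 ± 0.09) and by CASP1 (0.73), the apoptosome scaffold APAF1 (0.67) and its caspase CASP9 (0.65, or -0.31 without less specific probe sets). None of these differed from all other tumours.

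LRIG1, a brake on EGFR and related receptors at the membrane, was higher in T8 than in both resistant tumours, and its differences from parental cells and T6 were not called. Its arrays read 7.92 and 7.68 in T8, 7.63 and 7.40 in parental cells, 7.73 and 7.42 in T6, 6.40 and 6.68 in T2 and 6.70 and 6.95 in T3. The difference from parental cells was 0.29 ± 0.14 (adjusted p = 0.118), and from T2 and T3 1.26 and 0.98, both called. A further probe set gave -0.17 against parental cells. EGFR itself rose by 0.27 ± 0.08, LRIG2 fell by 0.43 ± 0.10 and ERBB2 by 0.26 ± 0.07, and the EGFR inhibitor ERRFI1 rose by 0.18 ± 0.05, so that 2 of 7 genes of this list rose and 2 fell. After another quantile normalisation 0 rose and 2 fell.

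Of 4 EGFR ligands tested, EREG, HBEGF and NRG1 rose and TGFA fell. HBEGF, a membrane-anchored ligand shed by proteases, measured 11.08 and 10.95 in parental cells and 11.75 and 11.72 in T8 (0.71 ± 0.07), above every other array and above T2, T3 and T6 by 0.51, 0.38 and 0.38. TGFA fell by 1.11 ± 0.07, and NRG1 rose by 0.39 ± 0.07 but was at -0.04 without less specific probe sets. Among 22 other receptor tyrosine kinase genes 4 rose and 4 fell, with FGF5 (1.79), PDGFA (0.81) and IGF1R (0.75) higher and VEGFA (-0.89) lower. Their median of 0.02 was -0.07 after another quantile normalisation.

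Among outputs of ERK signalling 16 of 23 genes rose (28.7% over all genes) and 1 fell (15.1%), with a median of 0.35. After another quantile normalisation 13 rose and 2 fell, with a median of 0.19. EGR1, an immediate early transcription factor, rose from 7.71 and 7.63 to 10.06 and 10.09 (2.41 ± 0.08), and the MAP kinase phosphatase gene DUSP1 by 1.83 ± 0.06. FOS (0.88) and the ERK inhibitor SPRED2 (0.88) followed. DUSP4, a feedback phosphatase of ERK (0.70), the ETS factor ETV4 (0.29) and the AP-1 subunit FOSL1 (0.17) were particular to T8, at 0.25 to 0.56 above the other tumours. DUSP4 was not particular with median-centred arrays, FOSL1 after another quantile normalisation, and ETV4 under either. Against T6, the other sensitive tumour, 10 genes of the list were higher in T8 and 0 lower. Against T3, 4 were higher and 2 lower, and after another quantile normalisation 2 were higher and 10 lower.

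NF-kB targets rose in 12 and fell in 6 of 23 tested genes, with a median of 0.32. The chemokines CXCL1 (2.30 ± 0.15), CXCL8 (1.97 ± 0.08) and CXCL3 (1.70 ± 0.22) and the cytokine IL11 (1.39 ± 0.07) had the largest rises. ICAM1, the adhesion molecule that binds leukocyte integrins, was particular to T8. It measured 8.54 and 8.52 in parental cells and 9.01 and 9.03 in T8 (0.49 ± 0.08), and T2, T3 and T6 lay at 8.21 to 8.67, around the parental level. Its 2 further probe sets rose by 0.54 and 0.62.

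**Figure D4:**
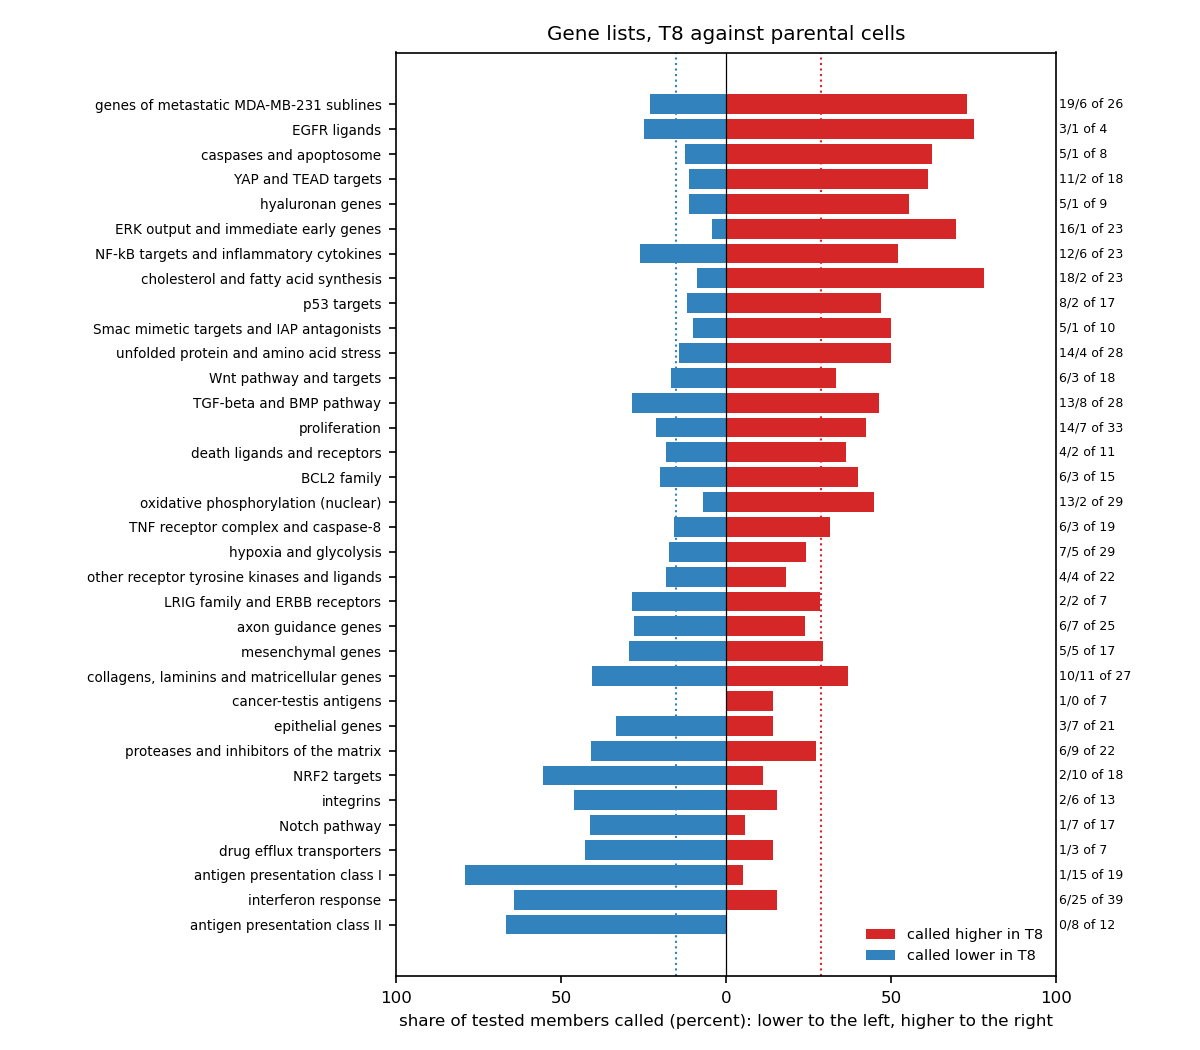
Share of tested members of each pathway list called in T8 against parental cells (percent), lower to the left and higher to the right. Dotted lines mark the shares over all genes (15.1% lower and 28.7% higher). Rows are ordered by the list's median log2 difference. Class II (-0.96) and interferon response genes (-0.47) lie at the bottom, and genes of metastatic sublines (1.32) at the top.

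The interferon response was lower in T8. Of 39 genes 25 fell and 6 rose, with a median of -0.47. RSAD2, an antiviral enzyme, fell from 7.46 and 7.27 to 5.17 and 5.24 (-2.16 ± 0.12). SAMD9L (-1.89 ± 0.12), the RNA helicase gene DDX60 (-1.29 ± 0.10) and the viral RNA sensor gene IFIH1 (-1.13 ± 0.14) fell as well. In these 4 genes T8 differed from T3 by at most 0.23, with no call. The list put T8 on different sides of the other tumours, with 3 genes higher and 19 lower than in T2, 15 higher and 0 lower than in T3, and 3 higher and 15 lower than in T6. IFITM1, a membrane protein that blocks virus entry, went the other way and was particular to T8 in the deposited scaling, though not under either other one. Its arrays read 10.21 and 10.18 in parental cells and 11.06 and 11.08 in T8 (0.88 ± 0.06), 0.26 above each other tumour.

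The promoter sequences of genes in this contrast are given for the interferon-stimulated response element, searched as GAAA, 2 bases of any kind and GAAA on both strands in the 250 bases before the RefSeq start (GRCh38.p14). The capitals mark the match, and each sequence runs 5′ to 3′ toward the gene. DDX60 (chr4:168318753-168319002, minus strand) and IFIH1 (chr2:162318685-162318934, minus strand) stand for interferon genes that fell, TNFSF10 (chr3:172523431-172523680, minus strand) and AIM2 (chr1:159076767-159077016, minus strand) for genes particular to T8 on the low side, and IFITM1 (chr11:313790-314039, plus strand) for one that rose.
DDX60: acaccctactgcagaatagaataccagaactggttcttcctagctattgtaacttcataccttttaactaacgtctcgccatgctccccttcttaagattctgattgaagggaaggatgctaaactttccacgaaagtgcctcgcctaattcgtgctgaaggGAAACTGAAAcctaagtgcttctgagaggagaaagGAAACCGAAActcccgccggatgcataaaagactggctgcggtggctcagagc
IFIH1: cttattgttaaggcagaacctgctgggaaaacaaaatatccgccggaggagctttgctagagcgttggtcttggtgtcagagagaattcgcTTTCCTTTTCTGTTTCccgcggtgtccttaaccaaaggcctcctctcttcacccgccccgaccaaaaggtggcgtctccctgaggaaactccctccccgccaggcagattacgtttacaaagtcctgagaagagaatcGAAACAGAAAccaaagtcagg
TNFSF10: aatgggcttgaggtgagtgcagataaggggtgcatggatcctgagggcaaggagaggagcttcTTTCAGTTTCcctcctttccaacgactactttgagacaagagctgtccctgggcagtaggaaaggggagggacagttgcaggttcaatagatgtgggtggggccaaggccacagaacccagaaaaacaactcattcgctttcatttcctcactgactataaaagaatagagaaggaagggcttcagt
AIM2: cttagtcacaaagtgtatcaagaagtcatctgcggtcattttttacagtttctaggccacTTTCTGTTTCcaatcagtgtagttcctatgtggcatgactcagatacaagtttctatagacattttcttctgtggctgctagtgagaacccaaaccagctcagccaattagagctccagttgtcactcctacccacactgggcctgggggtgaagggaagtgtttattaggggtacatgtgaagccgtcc
IFITM1: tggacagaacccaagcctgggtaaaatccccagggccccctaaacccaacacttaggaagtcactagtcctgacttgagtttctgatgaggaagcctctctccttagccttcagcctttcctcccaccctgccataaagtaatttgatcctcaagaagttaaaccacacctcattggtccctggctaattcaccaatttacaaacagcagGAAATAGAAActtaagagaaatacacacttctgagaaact
DDX60 held 2 matches and IFIH1 3, of which 2 overlap. The letters were found in 839 of 27305 promoters of this length (3.07%) and in 2.30% of those of tested genes. Among interferon genes with a promoter they were present in 13 of 21 lower genes, 2 of 4 higher genes and 4 of 5 without a call, so the match did not separate members by direction. They were in 7 of 256 T8-particular higher genes (2.73%) and in 3 of 24 lower ones (12.5%), AIM2, CREG1 and TNFSF10. AIM2, a DNA sensor of the inflammasome, was at 8.40 and 8.63 in parental cells and 7.16 and 7.09 in T8 (-1.39 ± 0.11), and CREG1, a lysosomal glycoprotein, differed by -0.55 ± 0.07. AIM2 and CREG1 were named here after their values and promoters were seen. A match is a description of letters and was not tested as a binding site.

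Antigen presentation was lower for both classes. In class I, which shows peptides from inside the cell, 15 of 19 genes fell and 1 rose, with a median of -0.41. The class I activator NLRC5 (-1.33 ± 0.14), the immunoproteasome subunit PSMB9 (-1.21 ± 0.08), HLA-B (-0.96 ± 0.06) and HLA-F (-0.91 ± 0.09) had the largest falls. TAP2, a subunit of the peptide transporter, was the one that rose (0.19 ± 0.07; adjusted p = 0.0404) and was particular to T8 in the deposited scaling alone, and with the mean over its probe sets it stood at -0.07. In class II 8 of 12 genes fell and 0 rose, with a median of -0.96, and HLA-DRB1 fell by 1.47 ± 0.10 beside HLA-DPA1, HLA-DRA and CD74. Against T2, 6 of the class II genes were higher in T8 and 0 lower. HLA genes are near copies of each other, so their probe sets can share signal.

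Proliferation genes rose in 14 and fell in 7 of 33, with a median of 0.15. These counts followed the scaling, with 5 higher and 11 lower and a median of -0.01 after another quantile normalisation. T8 was the highest tumour in 22 of the 33 genes and the lowest in 0 (30.4% and 19.7% over all genes). After another quantile normalisation these counts were 12 and 5 (21.5% and 24% over all genes). With median-centred arrays they were 25 and 0 (39% and 13.8% over all genes). AURKA, a mitotic kinase, rose by 0.47 ± 0.06, while cyclin E1 (CCNE1, -0.58 ± 0.07), E2F2 (-0.54) and the replication helicase subunit MCM7 (-0.38) fell. TYMS, which makes thymidylate for DNA synthesis, was particular to T8 except after another quantile normalisation. It was at 13.16 on both arrays, against 13.02 and 12.92 in parental cells (0.19 ± 0.06) and 12.40 to 12.95 in the other tumours.

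Energy and lipid genes leaned upward in the deposited scaling. Of 29 nuclear genes of oxidative phosphorylation 13 rose and 2 fell, against T2 18 were higher and 0 lower, and the median of 0.12 became -0.02 after another quantile normalisation (10 higher, 8 lower). The complex I subunits NDUFS1 (0.65 ± 0.07) and NDUFV2 (0.55 ± 0.07) led, and NDUFV2 was particular to T8 at 0.26 to 0.42 above the other tumours, except with median-centred arrays. UQCRB (0.48) and COX6C (0.42), of later complexes of the chain, followed. Cholesterol and fatty acid synthesis had 18 of 23 genes higher and 2 lower, with a median of 0.30 (9 and 3 after another quantile normalisation). The sterol carrier STARD4 (1.07), the desaturase SCD (0.89), DHCR7 (0.59) and HMGCS1 (0.59) rose most.

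Hypoxia and glycolysis genes were split, with 7 of 29 higher and 5 lower and a median of 0.03 (-0.07 after another quantile normalisation). ADM, the vasodilator adrenomedullin, rose by 1.26 ± 0.07 and the hexokinase HK2 by 0.91 ± 0.08, while VEGFA and the stress gene NDRG1 fell by 0.89 and 0.77. The list lay below T2 (2 higher, 18 lower) and T6 (0 higher, 11 lower) and above T3 (11 higher, 1 lower). Genes of the unfolded protein and amino acid response rose in 14 and fell in 4 of 28, with a median of 0.20 (9 and 8, and a median of 0.06, after another quantile normalisation). They were led by the serine synthesis enzyme PHGDH (1.40 ± 0.10) and the cystine transporter SLC7A11 (0.84 ± 0.07), with PSPH (0.50) and CHAC1 (0.53). Targets of p53 rose in 8 and fell in 2 of 17. They included the stress cytokine GDF15 (1.28), TP53I3 (0.91), ZMAT3 (0.81) and CCNG1 (0.85 ± 0.08), a cyclin G gene that was particular to T8 at 0.25 to 0.77 above the others in the deposited scaling and under neither other one. MDA-MB-231 cells carry a mutant p53, which is background and not measured here.

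NRF2 targets fell in 10 and rose in 2 of 18, with a median of -0.23. The reductases AKR1C3 (-2.46), AKR1C1 (-1.65) and AKR1C2 (-1.40), which are near copies and can share probe signal, and the quinone reductase NQO1 (-1.03 ± 0.06) fell most, and ME1 was the particular member. SLC7A11, which is also an NRF2 target, rose. Of 7 drug efflux transporters 3 fell and 1 rose, with ABCG2 (-0.80 ± 0.11), ABCC3 (-0.73) and ABCA1 (-0.73) lower and ABCC4 (0.38) higher.

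Genes that earlier work described in metastatic sublines of MDA-MB-231 gave the largest shift of any list. Of 26 tested 19 rose and 6 fell, 16 rose by at least log2 1, and the median was 1.32 (1.19 and 1.42 under the other scalings). MMP1, KISS1 and EREG led, followed by ADAMTS1, a secreted protease (2.54 ± 0.10). KISS1 and HBEGF were particular to T8. By count T8 did not lead T2 (9 of these genes higher and 11 lower) or T6 (6 and 7). The shares over all genes were 22.1% and 9.66% against T2 and 10.4% and 4.66% against T6. Against T3, 10 of these genes were higher and 4 lower, beside 13.8% and 4.66% over all genes.

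Among mesenchymal genes 5 of 17 rose and 5 fell. The matrix glycoprotein SPARC rose by 1.94 ± 0.15 from a parental mean of 4.85, SNAI2, a repressor of epithelial genes, fell by 1.15 ± 0.09 and CDH11 fell as above. S100A4, a calcium-binding protein linked to motility, fell from 13.12 and 13.05 to 11.47 and 11.52 (-1.59 ± 0.07), less than in T2 (-2.72), T3 (-2.60) and T6 (-2.08). Of 21 epithelial genes 3 rose and 7 fell. The tight junction genes CLDN1 (1.39 ± 0.14) and OCLN (1.24 ± 0.09) and the desmosomal DSC2 (0.85) rose, and the mucin MUC1 fell by 1.18 ± 0.10. KRT7, a simple-epithelium keratin, measured 11.43 and 11.36 in T8 and 11.93 and 11.87 in parental cells (-0.50 ± 0.06), and the other tumours stayed at 11.66 to 12.06. The desmosomal cadherin DSG2 (-0.35 ± 0.07) was also particular to T8 on the low side, except with median-centred arrays. T8 was lower than T2 in 9 epithelial genes and higher in 1.

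The matrix genes moved in both directions. Of 22 matrix proteases and inhibitors 6 rose and 9 fell, with the stromelysin MMP3 (2.25 ± 0.12) beside MMP1 and ADAMTS1. SERPINE2, an inhibitor of thrombin and plasminogen activators, was particular to T8. It rose from 9.42 and 9.20 to 10.69 and 10.63 (1.35 ± 0.08), above T2, T3 and T6 by 0.66, 0.39 and 0.50. Of 27 collagen, laminin and matricellular genes 10 rose and 11 fell, with the fibrillar collagen COL5A1 (-1.58), COL4A5 (-0.99) and COL6A3 (-0.91) lower and the connective tissue factor CCN2 (1.21 ± 0.06) higher. Of 13 integrins 6 fell, among them ITGB4 (-0.78) and ITGB5 (-0.69), and ITGB2 and ITGA1 (0.57) rose. Hyaluronan genes had 5 of 9 higher and 1 lower. HAS2 made the largest rise and CEMIP the only fall, while CEMIP2, a cell surface hyaluronidase, rose by 1.11 ± 0.11 and the hyaluronan-binding proteoglycan VCAN by 0.43 ± 0.17 (adjusted p = 0.0497).

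In the TGF-beta and BMP pathway 13 of 28 genes rose and 8 fell, with a median of 0.16. The activin subunit INHBA (2.54 ± 0.10), its binding protein follistatin (FST, 1.54 ± 0.06), the inhibitor of differentiation ID2 (1.86 ± 0.12) and the co-receptor ENG (1.41 ± 0.13) rose most. TGFBR2, the type II receptor for TGF-beta, rose from 11.01 and 10.95 to 12.04 and 12.03 (1.06 ± 0.06) and was particular to T8 in the deposited scaling alone, close to T6 (11.81 and 11.86) and farther from T2 and T3 (11.24 to 11.37). Of 18 Wnt genes 6 rose and 3 fell. The transcription factor LEF1 (1.49 ± 0.08) and the secreted DKK3 (1.12 ± 0.13) rose, the receptor FZD7 (-0.91) and the receptor ligase RNF43 (-0.81) fell, and the receptor FZD2 (0.51 ± 0.07) and the ligand WNT5B (0.43 ± 0.07) were particular to T8, WNT5B in the deposited scaling alone.

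YAP and TEAD targets rose in 11 and fell in 2 of 18, with a median of 0.36. CCN2, CRIM1 (1.0) and ANKRD1 (0.99) led. LATS2, the kinase that inactivates YAP and is itself a YAP target, was particular to T8 at 11.19 and 11.16 against 10.48 and 10.41 in parental cells (0.73 ± 0.06), with T2 and T3 at the parental level (10.46 to 10.57). Notch genes fell in 7 and rose in 1 of 17, with the ligand JAG2 (-1.0), the receptors NOTCH3 (-0.59) and NOTCH2 (-0.56) and DNER lower and the target HEY1 (0.88) higher. Against T2, 0 were higher and 7 lower. Axon guidance genes rose in 6 and fell in 7 of 25 (28.7% and 15.1% over all genes), with a median of -0.01. After another quantile normalisation 4 rose and 9 fell, with a median of -0.15. The receptor ROBO1 (2.62 ± 0.11) and the netrin NTN4 (0.92) were higher and the plexin PLXNA1 (-1.18) and SEMA4D (-0.64) lower. Of 7 cancer-testis antigens tested, MAGEC1 was the only one called.

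Markers of other cells were read for RNA of host or bystander cells, whose transcripts reach these human probes only in so far as mouse sequences bind them, which was not tested. In bulk RNA, fewer cells of a type and less RNA per cell cannot be told apart. Of 11 macrophage markers 7 were below log2 5 in T8, CD163, MRC1, C1QA and C1QB among them. Of 6 tested 0 rose and 3 fell. These were CSF1R and ITGAM, which are also among those below log2 5 in T8 (4.9 and 4.52), and FCER1G (5.19), so the falls lie near the filter. With median-centred arrays 1 rose and 2 fell. LAPTM5, of lysosomes in blood cells, was at 10.62 in T8 and 10.66 in parental cells, above T2, T3 and T6 (10.14, 9.20 and 10.22), and CD14, a receptor for bacterial lipopolysaccharide, was at 5.98 in T8 and 5.36 to 5.75 elsewhere. Of 10 blood and lymphocyte markers 5 were below log2 5, PTPRC among them, and CD79A (-0.46) and HBB (-0.42, or 0.05 without less specific probe sets) fell. Of 12 fibroblast and pericyte markers 5 were below log2 5, and COL1A1 (-0.45) was the only one called, at 0.44 with the mean over probe sets. Of 10 adipocyte and muscle markers 5 were below log2 5, and MB (-0.72) and DES (-0.47) fell.

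Of 12 endothelial markers tested 6 rose and 3 fell, but CDH5 and TIE1 were tested only because the T8 arrays reached log2 5. Of the 10 others 4 rose and 3 fell, with a median of -0.12. The mean of the 12 was 6.79 and 6.82 on the T8 arrays against 6.32 and 6.37 in parental cells and 6.42 to 6.64 in the other tumours. CDH5 and TIE1, which lay below log2 5 on every array outside T8, are part of that mean. ROBO4, a guidance receptor of vessels, measured 9.30 and 9.12 in parental cells and 10.61 and 10.51 in T8 (1.35 ± 0.08), above T2, T3 and T6 by 0.57, 0.86 and 0.68. ESAM, an adhesion molecule of endothelial junctions, rose from 9.64 and 9.53 to 10.91 and 10.93 (1.33 ± 0.07), with no called difference from T2 or T6. TIE1, an endothelial receptor kinase, measured 5.77 and 5.24 in T8 and stayed below log2 5 on every other array (1.05 ± 0.17). CDH5, ROBO4 and TIE1 were particular to T8, while PECAM1, EGFL7 and VWF fell, VWF lying below log2 5 in T8. TIE1 left that class with the mean over probe sets, without less specific probe sets, without T6 replicate 1 or 2 and without T8 replicate 1. CDH5 and TIE1 both left it with a filter at log2 6. ROBO4 and ESAM were also above the filter in the cultured parental cells. The part of other cells in these values was not tested.

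The share of T8-particular genes was read by chromosome. The highest share was on chromosome 21, with 10 of 166 genes (6.02%) particular on the high side, and chromosome 2 had 38 of 977 (3.89%), against 2.06% overall. Chromosome 1 had 5 of 1507 (0.332%) on the high side and 11 (0.730%) on the low side, S100A6, TAGLN2, AIM2 and CREG1 among them. The highest share on the low side was on chromosome 18, with 3 of 210 genes (1.43%), against 0.214% overall. S100A6, a calcium-binding protein, measured 14.23 and 14.10 in parental cells and 13.50 and 13.53 in T8 (-0.65 ± 0.05). The 71 genes whose fall T8 lacked in whole or in part included 16 on chromosome 9 (2.69% of its 595 genes) and 7 on chromosome 21 (4.22%), against 0.476% overall. The median over chromosome 21 genes was -0.15, -0.19 and -0.15 against parental cells in T2, T3 and T6 and -0.03 in T8, and over chromosome 9 genes it was -0.07, -0.17, -0.15 and -0.06. CBR1, a carbonyl reductase on chromosome 21, measured 10.55 and 10.69 in T8 and 10.44 and 10.45 in parental cells, and 9.79 to 10.21 in the other tumours. The bromodomain gene BRD3 and the adenylate kinase AK1 are 2 of the 16 on chromosome 9, at -0.15 and -0.32 in T8. These chromosomes and genes were picked after their values were seen, and the counts were not tested.

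**Figure D5:**
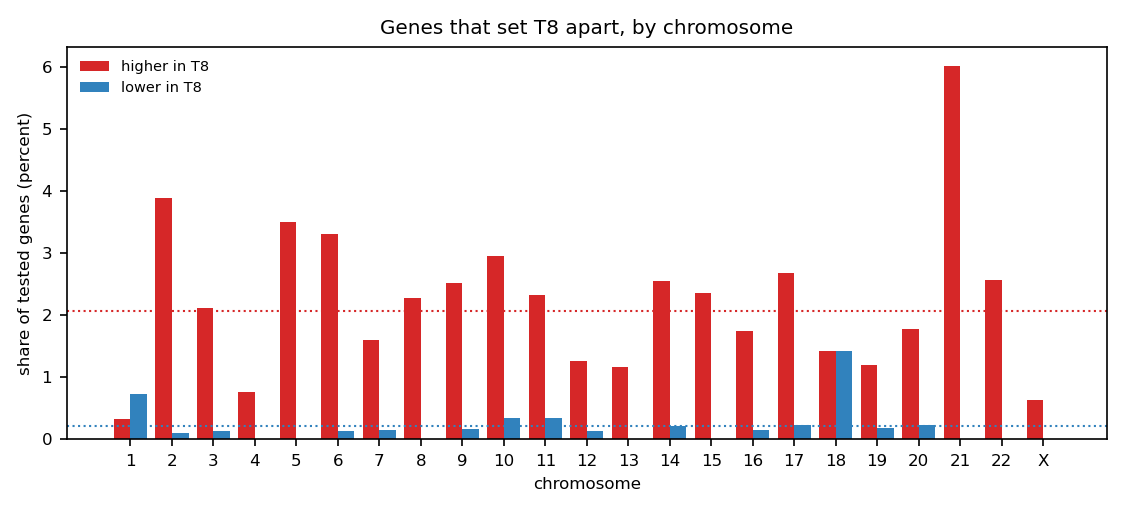
Share of tested genes on each chromosome that were particular to T8 on the high side and on the low side (percent), with dotted lines at the shares over all genes (2.06% and 0.214%). Chromosome 21 has the highest bar on the high side (6.02%) and chromosome 18 on the low side (1.43%, or 3 genes), followed by chromosome 1 (0.730%, or 11 genes).

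Windows of 31 neighbouring genes gave the pattern within chromosomes. The window with the highest T8 value relative to the mean of T2, T3 and T6 ran from SYTL4 to FAM199X on the X chromosome, with a median of 0.455 beside a 99th percentile of 0.264 over all 14203 windows. It holds BEX5, BEX2, TCEAL1 and ARMCX2, neuronal and transcription elongation family genes, and 27 of its 31 genes were higher in T8 than in T2 and 19 higher than in T6. The median difference from T3 was -0.038 there, with 2 genes higher and 3 lower. BEX2 rose by 1.38 and ARMCX2 by 1.33 over parental cells. The lowest window, from PLCXD1 to HCCS at the end of the X chromosome, had a median of -0.208 against the mean of the others (1st percentile -0.128). It was lower than T2 and T6 (-0.430 and -0.397) and higher than T3 (0.265), with the cytokine receptor genes CSF2RA (-1.09 against parental cells) and CRLF2 (-0.60) in it.

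Against parental cells the highest window ran from VEZT to NUP37 on chromosome 12 (median 0.626, 27 of 31 genes higher) and the lowest from RP2 to HDAC6 on the X chromosome (median -0.534, 24 of 31 lower). The 1st and 99th percentiles of all windows were -0.319 and 0.473. Both stretches were shared with the other tumours, at 0.387 to 0.530 and -0.578 to -0.414. In the first, NTN4 rose less in T8 than in T2 and T6, and in the second TIMP1, an inhibitor of matrix metalloproteinases, fell by 0.90. Ranked by the nearest tumour instead, a choice made after the values were seen, a stretch of chromosome 2 from PARD3B to MREG was above T2, T3 and T6 by medians of 0.35, 0.23 and 0.20. Its T8-particular genes were the lipid kinase PIKFYVE (0.78 ± 0.10, with a further probe set at 0.00), the BRCA1 partner BARD1 (0.39 ± 0.07, in the deposited scaling alone) and the purine synthesis enzyme ATIC (0.61 ± 0.06). The lowest stretch by that ranking ran from IER3IP1 to ONECUT2 on chromosome 18. Its medians against T2, T3 and T6 were -0.13, -0.17 and -0.14. Copy number was not measured here.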

How the data were processed

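Total RNA of MDA-MB-231 lines was measured on 10 Affymetrix arrays, 2 per line, and the precision is limited by that number and by how far a signal lies above background. The deposited table holds log2 expression values of 54675 probe sets, for which affy, RMA and limma are named per the submitters' processing notes, with versions and settings not given in the sources used here. RMA subtracts background, applies quantile normalisation across arrays and combines the probes of a set.

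The samples were grouped by title. Of the probe sets, 62 controls were left out, 41091 had 1 symbol in the platform annotation, 1801 several and 11721 none, and 41037 symbols were updated by Entrez number through the RefSeq table of GRCh38.p14. Each gene was read from its brightest probe set, by the mean of the 10 arrays. Genes were tested in limma 3.58.1 under R 4.3.3 (lmFit, and eBayes with a trend) with 1 coefficient per line over all 10 arrays, leaving 5 residual degrees of freedom beside 9.39 from the prior. The fit was tested on simulated data. Benjamini-Hochberg adjustment was over all genes tested. The 41 lists of pathway genes and cell markers are described by counts, without a set test.

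The named genes were 12 fixed genes whatever they showed, of which 10 were measured; the 12 largest called differences per direction; the 10 T8-particular genes per direction and the 6 genes per direction lacking in T8 that lay farthest from the other tumours; up to 4 called members per list with any T8-particular member; and the end genes and 4 largest members of a window. Genes named for other reasons are marked in the text. The members, lists and rules were chosen with earlier results of these data known. Promoters came from the RefSeq promoter table of GRCh38.p14. The alternatives were another quantile normalisation, median-centred arrays, no filter or a filter at log2 6, the mean over probe sets, no less specific probe sets, no trend, a replicate block, a fit of T8 and parental arrays alone, a size threshold and each array left out in turn.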

Additional observations from a re-analysis of the deposited data

Results flagged for a closer look

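Each gene in this paragraph is given by T8 minus the mean of T2, T3 and T6 on the log2 scale, and each differed from T2, T3 and T6 in the same direction by a test of each difference in limma. The comparisons share the T8 arrays. CDH5, and TIE1 among the list members, were tested only because the T8 arrays reached log2 5. They had to differ, so their differences carry no weight as a result. Among genes with the largest changes from parental cells or farthest from the other tumours, T8 was higher for FAT3 (2.52), BEX5 (2.15), PDE1C (2.10), AFF3 (2.00), DCLK1 (1.66), CDH5 (1.44), ZNF542P (1.42), NLRP3 (1.32), AIF1L (1.31), HAS2 (1.18), LMO2 (1.11), KISS1 (1.06) and ITGB2 (1.05). T8 was lower for DNER (-1.0), ME1 (-0.79), CDH11 (-0.70), PITPNM3 (-0.58), PLPP4 (-0.58), EML1 (-0.54), CCDC3 (-0.53), MALAT1 (-0.52), TNFSF10 (-0.48) and RHBG (-0.43).

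Among members of the gene lists, T8 was higher for TNFRSF11B (1.22), TIE1 (0.74), ROBO4 (0.70), LATS2 (0.59), ICAM1 (0.58), TGFBR2 (0.56), SERPINE2 (0.52), TYMS (0.49), FZD2 (0.49), TNFRSF10D (0.44), CCNG1 (0.43), BOK (0.42), HBEGF (0.42), ETV4 (0.37), NDUFV2 (0.36), FOSL1 (0.35), WNT5B (0.33), TAP2 (0.29), DUSP4 (0.26) and IFITM1 (0.26). It was lower for KRT7 (-0.50), PMAIP1 (-0.45) and DSG2 (-0.32). The SEs of T8 minus the mean of T2, T3 and T6 were 0.05 to 0.14 for the 33 higher genes given so far and 0.05 to 0.12 for the 13 lower ones.

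For genes that T2, T3 and T6 had lowered, T8 stood above their mean for CALB2 (1.49), OXTR (1.37), ADGRF1 (1.20), SERPINA1 (0.93), S100A4 (0.88), CD74 (0.87) and SH3TC2 (0.64). For genes they had raised, T8 stood below for ENTPD3 (-0.91), FPGT (-0.72), PKIB (-0.59), CLEC2B (-0.59), RASD1 (-0.57) and TTLL7 (-0.41).

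Outside the named genes, 44 probe sets without a single gene name were particular to T8 on the high side and 2 on the low side, of 5515 tested.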

How the results depend on the processing

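Calls of genes higher in T8 than in parental cells stayed within 1.5 times of 4285 in each alternative except the size threshold of log2 1 (353). Genes lower (2247) came to 1292 with median-centred arrays and 141 at the size threshold, and with single arrays left out to 1346 to 2397. T8-particular genes, 308 higher and 32 lower, came to 188 and 124 after another quantile normalisation, 179 and 8 with median-centred arrays, 203 and 19 without less specific probe sets, 178 and 26 without a trend, and 52 and 3 with a gap of log2 0.5. With single arrays left out they ranged from 98 to 394 and from 8 to 40. Genes lacking in T8, 12 and 71, came to 40 higher elsewhere after another quantile normalisation, 4 and 30 with median-centred arrays, 41 lower elsewhere without less specific probe sets, and 1 and 6 with that gap. With single arrays left out they ranged from 3 to 17 and from 28 to 74. The causes were not tested.

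Of the alternative values of single genes, 4650 kept direction and side of the threshold, 128 lost the call, 1 gained it and 8 turned. The turned values are T8 minus the mean of the other tumours for MALAT1 (0.19), BOK (-0.01) and the T8 minus parental difference for BOK (-0.01), CASP9 (-0.31), NRG1 (-0.04) and HBB (0.05) without less specific probe sets, and TAP2 (-0.07) and COL1A1 (0.44) with the mean over probe sets. Deviations of same-numbered arrays correlated at 0.146 to 0.308 among parental cells, T6 and T8, and at 0.502 between T2 and T3. Between these sets of lines they correlated at -0.387 to -0.137. A block by replicate number takes the same sign in every line, so it cannot take out a pattern that turns between lines. With the replicate block 4127 genes were higher and 2052 lower in T8 than in parental cells, and 301 and 35 were particular to it. A fit of T8 and parental arrays alone gave 4276 and 2126. Signals near log2 5 limit CDH5, TIE1, EML1 and the parental values of BEX5, ESM1, NRK and BCL2A1.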

Other observations

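The genes here were picked after their values were seen, and lie outside the naming rules. Several growth factor and guidance genes were also particular to T8 on the high side. IGFBP3, which binds insulin-like growth factors, measured 10.08 and 10.18 in parental cells and 10.87 and 10.98 in T8 (0.79 ± 0.08, limma), with T2 at 9.56 and 9.76 and T3 and T6 at 9.89 to 10.15. FGF1, a fibroblast growth factor, rose from 7.03 and 7.23 to 8.52 and 8.51 (1.38 ± 0.10), and T6 was next at 7.66 and 7.79. NEO1, a receptor for netrins and repulsive guidance molecules, rose by 1.32 ± 0.10 and stood 1.98, 0.84 and 1.22 above T2, T3 and T6. RGS7, a regulator of G protein signalling, rose by 2.21 ± 0.13, the scavenger receptor gene SCARF2 by 1.30 ± 0.11, with a further probe set at 0.13, and the lysosomal membrane protein gene LAMP3 by 1.77 ± 0.11. RGS7 and IGFBP3 left the class once less specific probe sets were left out, and RGS7 also with the mean over probe sets.

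Among genes that T8 changed less than the other tumours were GJA1, the gap junction protein connexin, and CD24, a surface glycoprotein. GJA1 rose by 1.71 ± 0.08 in T8 beside 2.20, 2.10 and 2.04 in T2, T3 and T6, and CD24 by 1.31 ± 0.08 beside 2.00, 1.85 and 1.66. F3, which encodes tissue factor, stayed at 12.58 and 12.47 in T8, between the parental arrays (12.63 and 12.43), while the other tumours were at 12.72 to 13.14. SOX9, a transcription factor of progenitor cells, was at 10.71 and 10.68 in T8 and 10.67 and 10.66 in parental cells, and at 10.20 to 10.52 in the other tumours. CDKN1C, an inhibitor of cyclin-dependent kinases, was at 8.41 and 8.37 in T8 and 8.35 and 8.40 in parental cells, and at 7.61 to 8.06 elsewhere.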
